A study of Mus musculus with 2 samples.

Results

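The locus of Malat1 and Neat1, a pair of neighbouring long noncoding RNA genes on mouse chromosome 19, held 2 of the 7313 Klf4 peaks in the deposited list. Its peaks were chosen by position, as those with a midpoint between 5.78 and 5.86 Mb of chromosome 19 in mm9. That window was selected on known scores, since it holds 1 of the highest-scoring peaks of the list, so the number, scores and widths of its peaks are described here without a test. The zinc-finger transcription factor Klf4 was mapped by chromatin immunoprecipitation and sequencing (ChIP-seq) in mesenteric arcades, the small vessels of the gut mesentery, of C57BL/6 mice on chow. The series has 1 library labelled eYFP+/+ Klf4WT/WT and 1 labelled eYFP+/+ Klf4delta/delta, in which the deletion is described for smooth muscle cells (SMC). What drove the deletion, the age of the mice and how many were pooled are not stated in the sources used here. Per the labels the material mixes SMC with macrophages, epithelial cells and others, so the peaks belong to no single cell type, and cells other than SMC are not described as lacking Klf4. The 1 peak list names no genotype. Values therefore have no replicate error, and dependence of either peak on Klf4 was not tested.

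Malat1 and Neat1 RNAs stay in the nucleus and are not translated. Malat1 is among the most abundant nuclear RNAs of mammalian cells and gathers in nuclear speckles, where splicing factors are stored. Its downstream end is cleaved to release a small tRNA-like RNA, mascRNA. Neat1 is the scaffold of paraspeckles, nuclear bodies that hold RNA-binding proteins, and only its long isoform builds them. Klf4 binds GC-rich and CACCC-type sequences. In vascular smooth muscle it is known for its part in the loss of the contractile state.

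In the order of the RefSeq table (GRCm38.p6), Malat1 (gene ID 72289) comes before Neat1 (gene ID 66961). The mascRNA entry is listed between them. That is the order of entries and not a place between the genes, since mascRNA is cut from the Malat1 RNA. The protein-coding genes Frmd8, Slc25a45 and Tigd3 come after Neat1. Gene models in mm9, the build of the peaks, were not used here. Gene positions below are the approximate mm9 spans that came with the window, 5.795 to 5.803 Mb for Malat1 and 5.825 to 5.846 Mb for Neat1, given to the nearest kb.

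The promoter of Malat1 is shown because the strongest peak of the locus reaches to within 1 kb of the upper end of the gene's approximate span, which is the start of a gene on the minus strand. RefSeq's window for Malat1 lies at chr19:5802623-5802922 on the minus strand of GRCm38.p6. These coordinates are of another build than the peaks and were not set against them. The whole of the strongest peak lay inside the approximate gene span, so whether it reaches into the promoter window was not determined. The window runs 5′ to 3′ from 250 bases before the transcript start to 50 bases after it. Capitals mark TGACG or its complement CGTCA, the core letters of sites for the CREB and ATF factors.

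Malat1 promoter: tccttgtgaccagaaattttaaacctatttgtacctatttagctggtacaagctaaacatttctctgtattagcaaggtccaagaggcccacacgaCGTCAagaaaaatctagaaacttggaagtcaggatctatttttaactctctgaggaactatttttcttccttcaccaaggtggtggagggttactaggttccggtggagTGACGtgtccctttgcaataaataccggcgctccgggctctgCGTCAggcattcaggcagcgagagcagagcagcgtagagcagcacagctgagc

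The Malat1 window held none of the 4 sequences listed for the search, each looked for on both strands. GGGTG, or its complement CACCC, the core of the Klf4 site, is present in 57.5% of the 32851 promoter windows in the table and had no match in that of Malat1. The longer GGGNGNGG is present in 49.5% of windows and also had no match, nor did the Sp1-type GC box GGGCGG (35.7% of windows) or the TATA box letters TATAAA (13.6% of windows). GGGNGNGG and GGGCGG can overlap each other, and GGGTG can lie inside GGGNGNGG. The absence of a match says only that these letters are not in this window. The sequence under the strongest peak of the locus was not searched. TGACG was added after the window had been read. It occurred 3 times, at bases 97 to 101, 206 to 210 and 248 to 252 counted from the 5′ end, the last of these across the transcript start. At least 1 match is present in 20.8% of windows, and at least 3 in 1.03%. Because TGACG was picked from the Malat1 window itself, these shares do not show that window to be unusual. The window was 47% G or C, against a median of 52.7% over all windows. Neat1 had no entry in the promoter table, so 1 of the 2 genes was matched.

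The peak at Malat1 was among the strongest and the widest of the whole list. It lay on chromosome 19 from 5798480 to 5802629 and was 4150 bp wide, with a score of 876.24. The score is the number that the authors' peak caller gave to each peak, and its scale is not stated in the file. Ranks by score or by width do not depend on that scale, whereas differences in score, used below, take it as linear. Scores per kb and bands of a percentage around a score, also used below, take it as linear from 0. By score the Malat1 peak ranked 4 of 7313, with 0.041% of peaks above it, and by width it ranked 3, with 0.0273% of peaks wider. With peaks under 1 kb apart merged, which left 6693, it ranked 5 by width. The whole peak fell inside the approximate span of Malat1. It covered about 51.9% of that span, on the side of the transcript start, and began 3.48 kb above the lower bound of the gene.

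The peak at Neat1 was wide as well, but its score was moderate. It lay from 5843413 to 5845879 and was 2467 bp wide, with a score of 144.97. By width it ranked 55 of 7313, with 0.738% of peaks wider, whereas by score it ranked 2244, with 30.7% of peaks higher. With peaks under 1 kb apart merged it ranked 156 of 6693 by width. It also fell inside the approximate gene span, at its upper end, and covered about 11.7% of it. Neat1, as background, is transcribed from the same strand as Malat1, so its peak too lay on the side where transcription starts. The short and long isoforms of Neat1 share that start. No other peak had its midpoint in the span, most of which belongs to the long isoform alone.

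**Figure D1:**
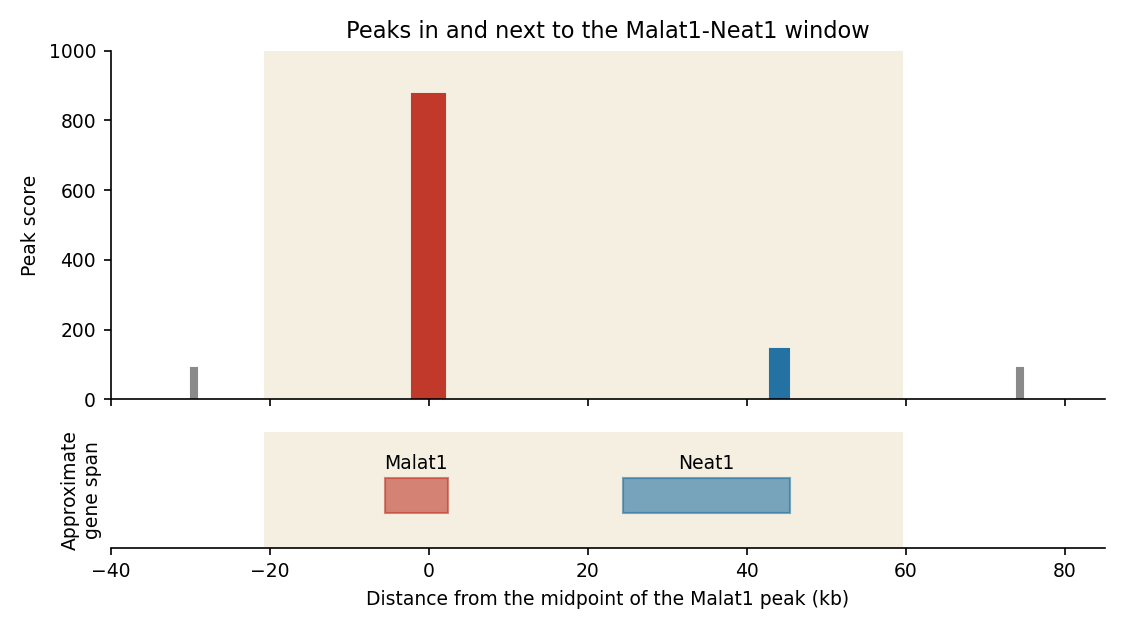
Peaks are drawn to scale as bars of their width, with the score as height, against the distance in kb from the midpoint of the Malat1 peak. The shaded area is the 80 kb window, and boxes below are approximate gene spans. The Malat1 peak (876.24) and the Neat1 peak (144.97) each lie at the upper end of their gene, and the grey peaks outside the window score 91.1 and 90.8.

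The peaks of the locus differed by 731.27 in score and by 1683 bp in width. Per kb of width the Malat1 peak scored 211.1 and the Neat1 peak 58.8. On that scale the Malat1 peak ranked 858 of 7313 and the Neat1 peak 7121. Thus 97.4% of all peaks had a higher score per kb than the one at Neat1. Dividing by width lowers wide peaks, and the file does not state that the score sums signal over the width. These ranks are therefore not a measure of binding density. The midpoints of the Malat1 and Neat1 peaks were 44.1 kb apart, and 40.8 kb without a peak separated them. The next peaks on either side lay 27.1 kb below the Malat1 peak and 28.6 kb above the Neat1 peak. These neighbours, the nearest peaks outside the window, were ordinary in size. The lower one, at 5770617 to 5771362, was 746 bp wide and scored 91.1. The upper one, at 5874483 to 5875224, was 742 bp wide and scored 90.8.

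The megabase around the locus, from 5 to 6 Mb of chromosome 19, held 24 peaks, 22 of them outside the window. With all peaks, the window held 2.5 per 100 kb and the rest of the megabase 2.39 per 100 kb. With the upper 50% of scores, the window kept 2.5 per 100 kb, since both of its peaks score above the median. The rest held 1.30 per 100 kb, a loss set by the threshold. The window was chosen with its scores known, so this contrast is not evidence about the locus. Peak sequence took up more of the window than of its surroundings. The peaks of the locus summed to 6.62 kb, or 8.27% of the window, with a mean width of 3308.5 bp. The other 22 peaks summed to 21.1 kb, or 2.29% of the remaining sequence, with a mean width of 956.9 bp. The Malat1 peak alone made up 15.0% of all peak sequence in the megabase, and both peaks of the locus 23.9%, in a window that is 8% of its length. Lengths are those the authors' peak caller set.

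Within the megabase the Malat1 peak ranked 1 by score and by width, and the Neat1 peak ranked 2 by width and 9 by score. The other 22 peaks scored between 61.06 and 254.24, with a median of 127.53. Their widths ranged from 344 to 1745 bp, with a median of 877 bp, so each was narrower than the Neat1 peak. Scores of 7 of the 22 were above that of the Neat1 peak. The highest of them, 254.24, belonged to a 1745 bp peak at 5689141 to 5690885, 110.5 kb below the Malat1 peak by midpoints. It was followed by peaks at 5662643 to 5663994 (score 247.61) and at 5456535 to 5457856 (score 214.34). The Malat1 peak stood 622.0 above the highest of these. By score per kb, which divides by width, the Malat1 peak ranked 3 of the 24 and the Neat1 peak 23. The highest value, 305.6 per kb, was that of a 344 bp peak.

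Gaps on either side of the locus were close to the median gap of the megabase, and the gap inside it was longer. The 23 gaps between neighbouring peaks of the megabase, those of the locus included, ranged from 100 to 153416 bp. Their median was 27.7 kb, near the gaps of 27.1 and 28.6 kb on either side of the locus. The 40.8 kb between Malat1 and Neat1 was exceeded by 4 of the 23 gaps. Over chromosome 19 the median gap was 53.8 kb, and over the list 94.0 kb.

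**Figure D2:**
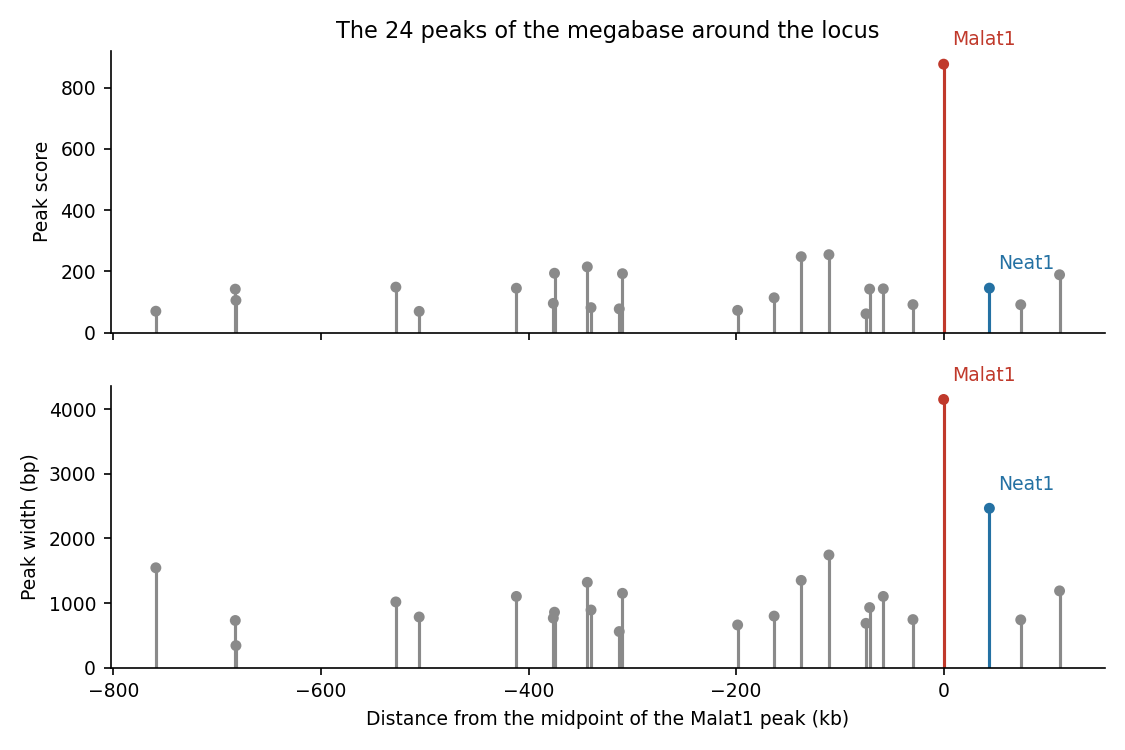
Score (upper panel) and width in bp (lower panel) of each of the 24 peaks are plotted against the distance in kb from the midpoint of the Malat1 peak. The Malat1 peak stands above all others in both panels, while the Neat1 peak stands out by width (2467 bp) and lies among the others by score (144.97).

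Along chromosome 19, with 275 peaks, the Malat1 peak was again the highest and the widest. The peaks that followed by score lay at 46576336 to 46578894 (574.91), 10057159 to 10059038 (523.79) and 9016369 to 9017668 (454.04), or 301.33, 352.45 and 422.2 below it. The Neat1 peak ranked 82 by score on this chromosome and 3 by width. Thus 2 of the 3 widest peaks of chromosome 19 lay in the 80 kb window, and the other was the 2559 bp peak with the score of 574.91. The chromosome's median peak was 887 bp wide and its median score was 104.88.

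Malat1 and Neat1 formed 1 of few close pairs of peaks this wide. Among 199 peaks of at least 2000 bp, 3 pairs had midpoints within 50 kb of each other, and Malat1 with Neat1 was the pair of greatest summed width, 6617 bp. The others lay on chromosome 17 (2064 and 2316 bp, midpoints 3.95 kb apart) and on chromosome 12 (2314 and 2046 bp, 13.2 kb apart), with summed widths of 4380 and 4360 bp. These thresholds were chosen after the widths were seen. With a minimum of 1500 bp there were 29 pairs within 50 kb, none of greater summed width than Malat1 with Neat1. With pairs of at least 2000 bp up to 100 kb apart there were 7, and 1 of these had a greater summed width than the pair at this locus.

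The Malat1 peak had close counterparts elsewhere in the list, taking score and width together. The 5 peaks nearest to it in the sum of rank differences lay on chromosome 10 at 96079721 to 96083978 (score 1010.6, 4258 bp), chromosome 16 at 55819213 to 55823297 (944.53, 4085 bp), chromosome 10 at 98724646 to 98729314 (639.28, 4669 bp), chromosome 11 at 86397162 to 86400640 (532.18, 3479 bp) and chromosome 14 at 26278421 to 26281350 (638.78, 2930 bp). The rank differences summed to 3, 3, 7, 26 and 27. Of all 7313 peaks, 5 reached 4000 bp, and the scores of the other 4 ran from 463.28 to 1010.6, a range that includes that of Malat1.

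**Figure D3:**
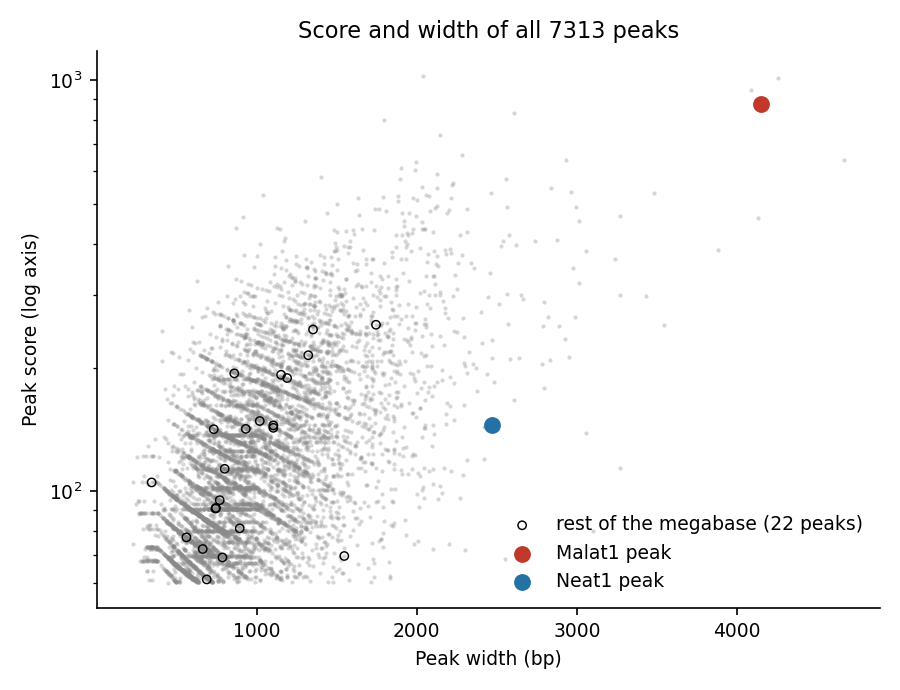
Each of the 7313 peaks is a point, with width in bp on the x axis and score on a logarithmic y axis. The Malat1 peak (red) lies at the upper right with the few peaks of at least 4000 bp, and the Neat1 peak (blue) lies in the lower part of the peaks of its width. Open circles are the 22 other peaks of the megabase.

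The Neat1 peak was unusually wide for its score. Among the 440 peaks with a score within 5% of its own, it ranked 2 by width. The other 439 had a median width of 988 bp, with quartiles of 774 and 1228.5 bp, and the 1 wider peak measured 3059 bp. Conversely, 25 other peaks had a width within 5% of that of the Neat1 peak. The median score of these 25 was 255.32, and 22 of them scored higher than the Neat1 peak. Of the 54 other peaks at least as wide, 4 scored lower, and the median score of all 54 was 301.8. Within 10% of its score it also ranked 2 by width, among 972 peaks. The 5% band was chosen after the values were seen, and width and score come from the same peak calling.

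**Figure D4:**
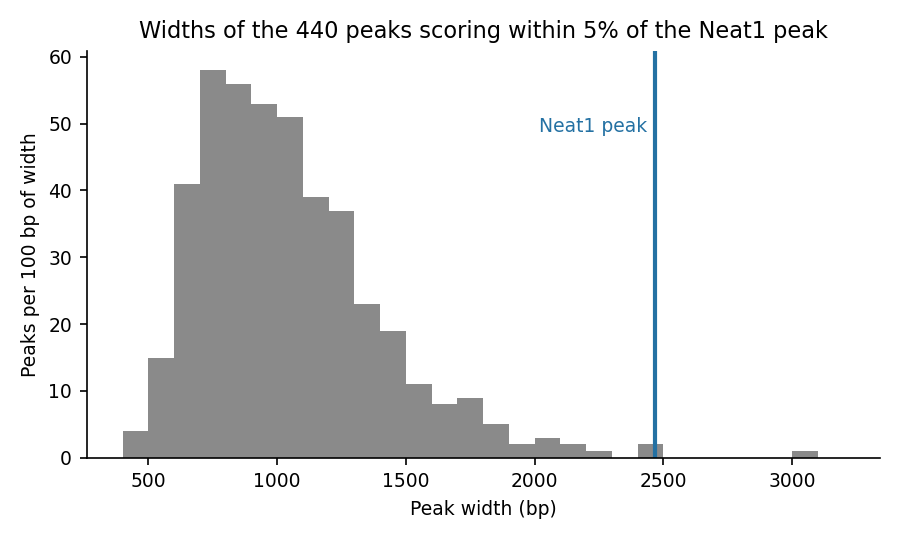
Bars count peaks per 100 bp of width among the 440 peaks with a score within 5% of that of the Neat1 peak. The blue line at 2467 bp is the Neat1 peak itself, to the right of all but 1 of the other peaks, whose median is 988 bp.

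Among the 10 highest-scoring peaks, the one at Malat1 had the most peaks around it. There were 26 other peaks with midpoints within 500 kb, against 0 to 17 around the other 9. The peak at rank 5, on chromosome 9, had 17, and that at rank 2, on chromosome 10, had none. The highest other score within 500 kb of the Malat1 peak was 254.24 and the median 122.2. Its lead over that highest neighbour, 622.0, was the second largest of the 9 peaks that had a neighbour, after 665.81 for the chromosome 16 peak at rank 3. The Neat1 peak was the widest within 50 kb of any of the 10. Only 3 of the 10 had any other peak within that distance, and for the others, on chromosomes 11 and 14, the widest measured 1564 and 331 bp.

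**Figure D5:**
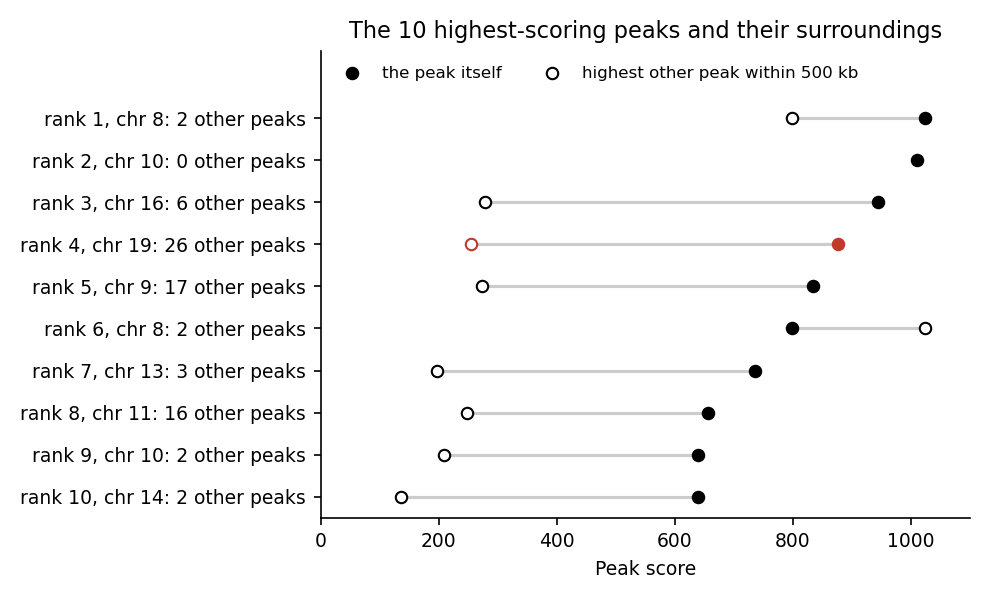
For each of the 10 highest-scoring peaks, a filled circle gives its score and an open circle the highest score of any other peak within 500 kb. Row labels give the number of such peaks. The Malat1 peak (red) has 26 and a lead of 622.0, and the peak at rank 2 has none.

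Among peak-rich stretches, the one with Malat1 held the highest score, and the locus was chosen with that score known. Across the 14 bins of 1 Mb that held at least 20 peaks, the highest score per bin ran from 196.14 to 876.24. The bin with Malat1 was the highest, and the next reached 468.48, on chromosome 3 between 96 and 97 Mb. Scores over 500 were rare in the whole list, at 35 of 7313 peaks. The bins were taken by their number of peaks, but after the scores had been seen, so no test was made.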

How the data were processed

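Klf4 ChIP-seq peaks of mouse mesenteric arcades were analysed, from a series with 1 library per genotype. The deposited file is 1 list of 7313 peaks with chromosome, start, end, name and a score per peak from the authors' peak caller. Names begin with MACS in the file. Per the submitters' processing notes, Bowtie and SAMtools were used, versions not listed, with the build mm9. Caller version, threshold, control library and read depth are not stated in the sources used here. Genotypes were therefore not compared, and no depth or counting interval is attached to a peak. Since the caller sets both the ends and the score of a peak, width and score are not independent.

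Starts were shifted by 1 base to make coordinates 1-based. Peaks were assigned to the locus by midpoint, and ranked by score, width and score per kb over the whole list, with ties given the better rank. The peaks named were the members, the nearest peak on each side, the 3 highest other peaks of the megabase and the 5 nearest to the Malat1 peak in rank. Neighbouring genes on 1 side of the locus are not reported here. Members, lists and rules were chosen with earlier results of these data known. Promoters were read from RefSeq windows of GRCm38.p6 matched by symbol. A list of paraspeckle and nuclear speckle protein genes was not assigned to peaks, since gene models of mm9 were not used here. Ranking, gaps and merging were tested on simulated data. Python 3.11.15, numpy 2.4.6, pandas 2.3.3 and matplotlib 3.10.9 were used.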

Additional observations from a re-analysis of the deposited data

How the results depend on the processing

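Assigning peaks by any overlap of 1 base in place of midpoints, keeping the upper 50% of scores, or merging peaks under 1 kb apart left 2 peaks at the locus, or 2.5 per 100 kb. With the upper 25% of scores 1 peak was left, at Malat1, since the Neat1 peak scored below 161.17. In the rest of the megabase the upper 50% of scores left 1.30 peaks per 100 kb, against 2.39 with all peaks, a loss set by the threshold. By score per kb, the rank of the Malat1 peak moved from 4 to 858 and that of the Neat1 peak from 2244 to 7121. Dividing by width lowers wide peaks, so these ranks do not measure binding density. Among the peaks of chromosome 19 alone the Malat1 and Neat1 peaks ranked 1 and 82 by score. After merging, which widens other regions and leaves 6693, they ranked 5 and 156 by width, against 3 and 55. The median score of the locus, 510.6, became 144.97 without the Malat1 peak, so it describes neither peak. Pairs of wide peaks within 50 kb rose from 3 to 29 with a minimum of 1500 bp. None of the 29 had a greater summed width than Malat1 with Neat1. No paired analysis was possible because each genotype had a single library and the list names neither, which also left genotypes uncompared. With read depth not given, sequence without a peak does not show absent binding.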
